A study of Drosophila melanogaster with 16 samples.

Results

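The genes described here encode insect cuticle proteins and the Osiris proteins of Drosophila melanogaster, and the values are those of a chromatin contact map made at a stage before cuticle is secreted. Members were all protein-coding genes of the RefSeq table of Release 6 (dm6) whose symbol begins with Cpr, Lcp, Osi or Edg followed by a digit, with Ccp84A, or with Twdl. The rule found 145 of 13922 protein-coding genes on the 6 arms compared (2L, 2R, 3L, 3R, chromosome 4, X), and 3 pseudogenes with matching symbols were left out. Contacts were mapped by Micro-C, where micrococcal nuclease trims fixed chromatin to nucleosomes and the ends of nucleosomes that lie near each other are joined and sequenced. All values come from the control line yw (2 samples, genotype label WT) at nuclear cycle 14. Its embryos were collected for 45 min, aged for 2 h at 25 °C, pooled over several collections and sorted by hand for stage, so the map averages over all cells of the embryo. The other 14 samples of the series carry edited genotypes and were not analysed here.

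Cuticle is the chitin and protein layer that the epidermis, the trachea and the foregut and hindgut secrete late in embryogenesis and renew at each moult. The Cpr, Ccp84A and Lcp genes, along with Edg78E and Edg84A, encode proteins with the Rebers-Riddiford domain, which binds chitin. Tweedle (Twdl) genes encode a separate family of cuticle proteins that set body shape in the larva. Osiris (Osi) genes encode a family found only in insects, active in cuticle-secreting cells, and most of them lie at the dosage-sensitive Triplo-lethal locus. Many of these families arose by tandem duplication. An insulation boundary is a position that few contacts cross, the sequence between neighbouring boundaries is a domain, and a loop is a pair of positions, its anchors, with more contacts than their surroundings.

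The deposited lists held 1930 different boundaries on the compared arms, each a bin of 400 bp with a strength, and 313 loops, each with a value. Both are scores given by the authors without a stated scale. Strength ran from 1.2502 to 9.50 with a median of 1.64, and no weaker boundary is listed. Loop value ran from 4.26 to 653 with a median of 7.75. Each feature has a single value for the line, with no value per sample, so no number below has a replicate error. The depth of the map is unknown, and no test between groups of genes was made. Shares of the members are set beside the same shares over all protein-coding genes as a description. No expression was measured, so the names of the genes rest on the gene table alone.

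The cuticle and Osiris genes stood away from boundaries. A gene end lay within 1 kb of a boundary for 6 of the 145 genes (4.14%), against a background of 18.2% of all protein-coding genes. No boundary overlapped any of the 145 genes, whereas 10.3% of all protein-coding genes and 4.20% of those of up to 2 kb carried one. The members are short, with a median length of 1107 bp against 2163 bp for all genes, and short genes were also less often at boundaries, since 11.0% of the 6519 genes of up to 2 kb had an end within 1 kb of one. The part of gene length in the lower share of the members was not tested beyond this. The median distance from a member to the nearest boundary was 29.5 kb, with quartiles of 10.4 and 81.6 kb, against 14.3 kb (quartiles 3.01 and 40.4 kb) over all genes. Over genes of up to 2 kb the median was 19.35 kb. In all, 17 members (11.7%) lay over 100 kb from any boundary, as did 6.41% of all genes. Many of these members shared a domain and so are not independent. Such groups were Lcp1 to Lcp4, Osi1 with Osi24 to Osi6, and TwdlT with Cpr97Ea and Cpr97Eb.

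**Figure D1:**
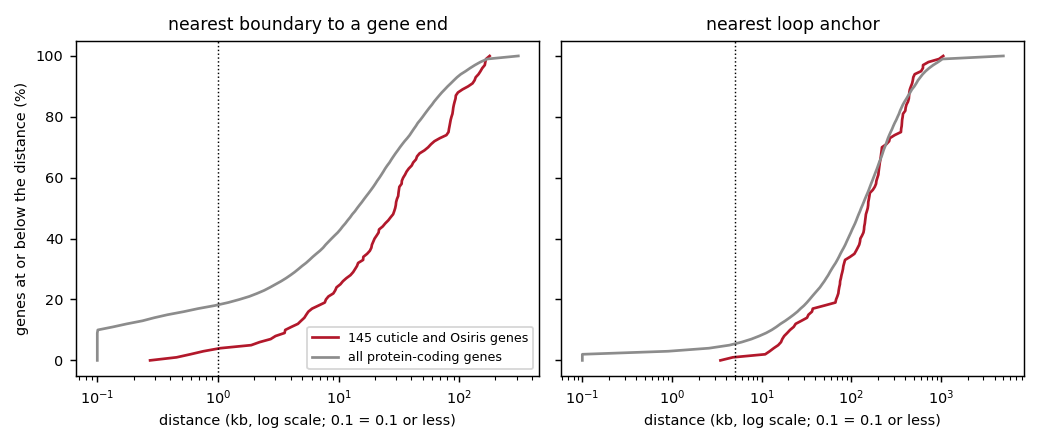
Cumulative share of genes (percent, vertical axis) at or below a distance in kb (log scale) from a gene end to the nearest boundary (left) and from a gene to the nearest loop anchor (right), for the 145 cuticle and Osiris genes and for all 13922 protein-coding genes. Dotted lines mark 1 kb and 5 kb. The curve of the cuticle and Osiris genes lies below and to the right of the other for boundaries, with a median of 29.5 kb against 14.3 kb for all genes, and nearer to it for anchors, with 153 kb against 130 kb for all genes.

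The 6 genes at a boundary shared 5 boundaries, all below the median strength. Edg84A on 3R (6684445 to 6685157), a cuticle gene named for its dependence on the moulting hormone ecdysone, lay 445 bp from the boundary at 6683601, which had a strength of 1.62 and rank 1006 of 1930. Cpr56F on 2R lay 771 bp from a boundary of strength 1.38. Cpr76Ba on 3L lay 752 bp from one of 1.37. Cpr31A on 2L lay 466 bp from one of 1.29. The larval cuticle genes Lcp65Ac and Lcp65Ab2 on 3L lay on either side of the same boundary, at distances of 608 and 274 bp, and its strength of 1.28 ranked 1820. Of all genes at boundaries, 55.2% likewise had only boundaries below the median. At the boundaries of Cpr31A and Cpr56F another gene end was closer, that of Pen, an importin gene, at 100 bp and that of CG34199 inside the bin. The genes just outside the limit of 1 kb were Cpr65Ax1 at 1131 bp, Cpr57A at 1884 bp and Lcp65Ad at 1900 bp. By family, 3 of 70 Cpr, 2 of 15 Lcp and 1 of 3 Edg genes lay at a boundary, against 18.2% of all genes. None of the 7 Ccp84A, 25 Twdl or 25 Osi genes did. These counts are too small to read a difference between families. The nearest boundary to any Twdl gene was 7636 bp away, at Twdlalpha, and the nearest to any Osi gene 9377 bp, at Osi20. Neighbouring members share their surroundings, so the 145 genes are not independent. Counted as 18 clusters and 33 single genes, 5 of 51 units (9.80%) had a member at a boundary. No like share is given for other genes grouped into units. A cluster has more gene ends than a single gene, so the share of all genes is no background for this count.

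**Figure D2:**
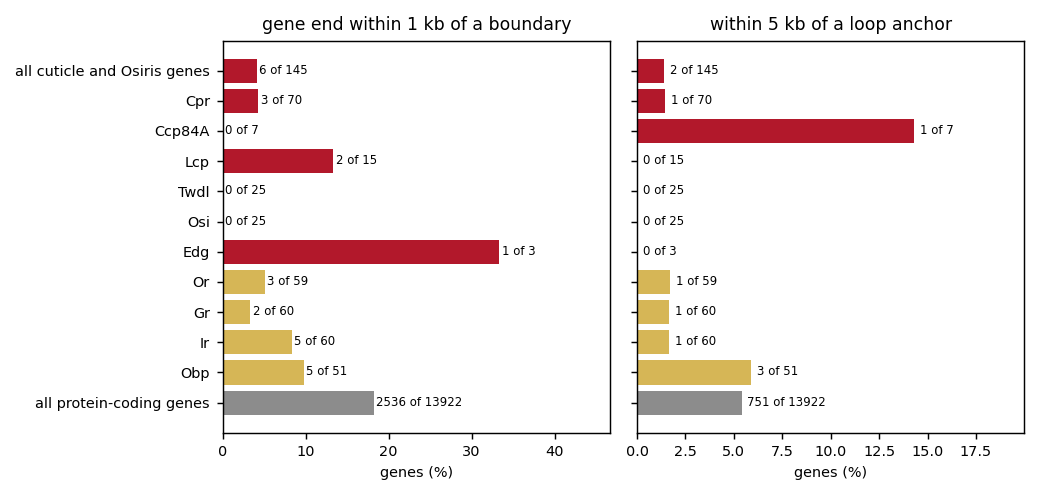
Share of genes in percent with an end within 1 kb of a boundary (left) and within 5 kb of a loop anchor (right), for all 145 cuticle and Osiris genes, for each family, for the odorant receptor (Or), gustatory receptor (Gr), ionotropic receptor (Ir) and odorant-binding protein (Obp) genes, and for all protein-coding genes. Counts stand beside the bars, and the bars of Ccp84A and Edg rest on 7 and 3 genes.

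Most members sat in tandem clusters, and boundaries were nearly missing from these. With members joined where at most 20 kb separated their ends, 112 of the 145 genes fell into 18 clusters of 2 to 21 genes. The clusters spanned 4.70 to 142.6 kb with a median of 15.6 kb. Gaps between neighbours within a cluster had a median of 1.56 kb and reached 11.8 kb, between Osi6 and Osi7, and the smallest gap that kept neighbours apart was 23.8 kb, between Osi1 and Osi24. All 7 Ccp84A genes were clustered, as were 14 of 15 Lcp, 21 of 25 Osi, 19 of 25 Twdl, 49 of 70 Cpr and 2 of 3 Edg genes. A boundary lay inside 1 of the 18 clusters, the one of strength 1.28 between Lcp65Ac and Lcp65Ab2. The 18 spans together covered 429 kb and held this boundary alone, a density of 2.33 per Mb, against 14.4 per Mb for all arms compared. Among neighbouring protein-coding genes that were both members, 1 of 80 pairs had a boundary between the gene midpoints, against 11.3% of all 13916 neighbouring pairs. The members' pairs are closer together, with midpoints a median of 2.34 kb apart against 3.87 kb over all pairs. Among pairs with midpoints up to 5 kb apart, 1 of 64 pairs of members (1.56%) held a boundary, against 6.40% of all such pairs. Where a member had a neighbour that was no member, 6 of 130 pairs (4.62%) held one, against 11.3% of all pairs. The midpoints of these 130 pairs were a median of 3.99 kb apart, against 3.87 kb over all pairs.

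Few cluster edges had a boundary close by, and the count is too small to set their share apart from that of all gene ends. Of 36 cluster edges, 4 (11.1%) had a boundary within 5 kb outside the outer gene, against 16.2% of all gene ends. The cluster of Cpr67Fa1, Cpr67Fa2 and Cpr67Fb on 3L was the only one with a boundary at both edges, at 3590 and 4508 bp. Cpr76Ba to Cpr76Bd had one at the left edge (752 bp), as had Edg84A to Ccp84Aa (445 bp). Just outside the limit were the left edges of the clusters that start at Lcp65Ag3 (5186 bp, strength 2.09) and at Cpr78Ca (5460 bp, strength 1.78). The nearest boundary beyond a cluster edge lay at a median of 35.5 kb and up to 334 kb away. These boundaries had a median strength of 1.63, close to that of all boundaries, with a range of 1.29 to 3.14. A cluster took up a median of 13.9% of the interval between the boundaries on its sides, from 1.93% for Cpr72Ea to Cpr72Ec to 41.9% for Cpr49Aa to Cpr49Ah.

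**Figure D3:**
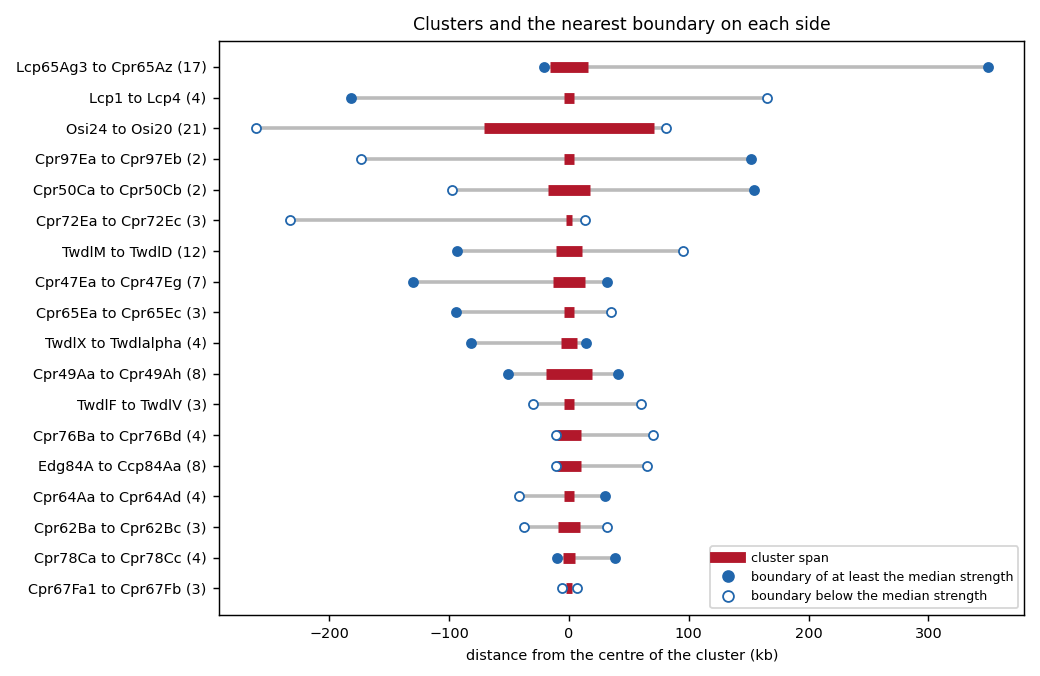
The 18 clusters (rows, with the number of members in brackets), drawn as distance in kb from the centre of the cluster. Bars show the cluster span, grey lines reach to the nearest boundary on each side, and filled and open circles are boundaries of at least and below the median strength of 1.64. Boundaries lie close to both edges only for Cpr67Fa1 to Cpr67Fb, and the intervals reach 370.4 kb for Lcp65Ag3 to Cpr65Az, whose inner boundary is not drawn.

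The 145 genes lay in 47 domains. The domain of a member had a median size of 162.4 kb (quartiles 75.6 and 342 kb), against 112.8 kb (quartiles 52.4 and 206 kb) over all protein-coding genes with a domain. The median over genes of up to 2 kb was 132.4 kb. A binomial interval of the members' median (95%), which treats genes of the same domain as independent, ran from 96.0 to 188.8 kb and so held both of these medians. Domains of at least 100 kb held 84 of the 145 genes (57.9%), against 54.3% of all genes and 59.4% of those of up to 2 kb, so by this count the members were close to the background. Counted once each, the 47 domains had a median of 137.2 kb, and the 1524 domains that held only other genes a median of 44.0 kb. A large domain holds more genes and so more often a member, and the part of this in the last difference was not tested. Of the 47 domains, 27 (57.4%) reached 100 kb, as did 25.5% of the 1524. Families differed, with a median domain of 342 kb for Osi genes, 188.8 kb for Twdl genes, 110 kb for Cpr genes, 75.6 kb for the Ccp84A genes, which share a domain, and 48.4 kb for the 3 Edg genes. The Osi and Twdl medians are each the size of 1 domain, which held 22 of 25 Osi and 13 of 25 Twdl genes. The Lcp genes were split, with 7 in a domain of 20.8 kb, Lcp9 in one of 34.4 kb and 7 in domains of 348 or 349.2 kb. The largest domain with a member, 451.6 kb on 3R and rank 8 of 1895, held Cpr92A among 38 genes. The next were a domain of 386 kb on 2L with Osi21 and one of 380 kb on X with Cpr11A and Cpr11B. The smallest, of 8.0 kb on 3L, held Cpr67B and CG4022. That of 10.8 kb on 3R held the ecdysone-dependent gene Edg91 among 5 genes, and that of 12.8 kb on 3L the Cpr67F cluster and Aps.

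**Figure D4:**
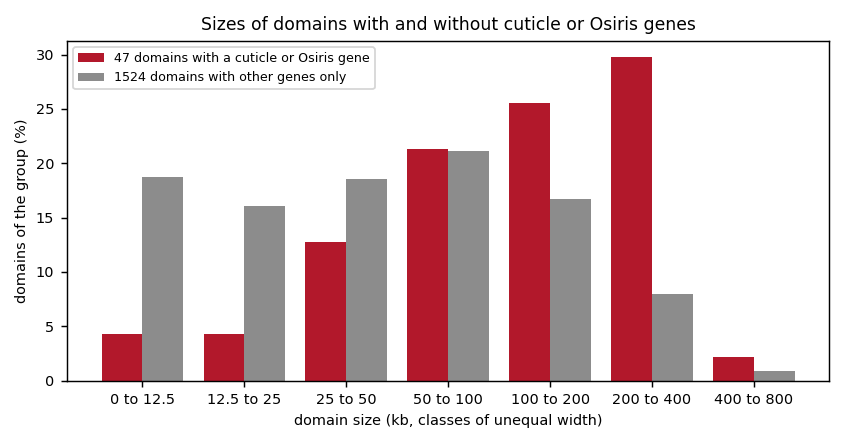
Share in percent of the 47 domains with a cuticle or Osiris gene and of the 1524 domains with other genes only, by class of domain size in kb (classes of unequal width). Of the 47 domains, 29.8% measured 200 to 400 kb against 7.94% of the domains with other genes only, and 4.26% measured under 12.5 kb against 18.7%.

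None of the 47 domains held cuticle or Osiris genes alone. They held 2 to 73 protein-coding genes with a median of 18, and in the median domain 10.0% of the genes were members. The domain of the small cluster Cpr72Ea to Cpr72Ec had the most, 73 genes in 246 kb, rank 3 of all domains by gene number. The 92 boundaries at the ends of these domains were of ordinary strength, with a median of 1.63 and quartiles of 1.46 and 1.97, against 1.64 with quartiles of 1.42 and 1.99 for all boundaries. A protein-coding gene end lay within 1 kb of 85 of the 92 (92.4%), and at 5 of them a member end lay this close. The nearest gene end was that of a member at 3, namely Lcp65Ab2, Cpr76Ba and Edg84A. Of all 1688 boundaries that border a domain with genes, 82.7% had a gene end this close. The genes at these ends included the RNA helicase gene Rm62 and the kinase gene Pak at the Osiris domain, the polarity gene scrib at the large Tweedle domain, ATPsynF, of the mitochondrial ATP synthase, at that of Cpr60D, and RpS7, of the small ribosomal subunit, at that of Osi23.

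The Osiris cluster on 3R was the largest and had no boundary or anchor inside. From Osi24 to Osi20 it held 21 Osi genes over 142.6 kb (6198811 to 6341424), with gaps of 0.119 to 11.8 kb and a median gap of 3.22 kb. Osi1, 23.8 kb to the left, lay in the same domain, so that 22 of the 25 Osi genes shared a domain of 342 kb, rank 40 of 1895 by size. The boundary on its left, at 6008401 with strength 1.62, was 190 kb from Osi24. The one on its right, at 6350801 with strength 1.56, was 9.38 kb from Osi20. Both were below the median strength. With boundaries of at least the median strength, the cluster lay in an interval of 589.2 kb. The domain held 45 genes in all, among them Gasp, which encodes a chitin-binding protein of the tracheal cuticle, the odorant-binding genes Obp83cd, Obp83ef and Obp83g, and the neuropeptide receptor gene NPFR. No loop anchor lay in the domain, and the nearest anchor to the cluster was 367 kb away. Of the Osi genes elsewhere, Osi22 on 3R lay in a domain of 41.2 kb, Osi23 on 3R, needed for the pores of olfactory bristles, in one of 256.8 kb, and Osi21 on 2L in one of 386 kb.

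The cluster at 65A on 3L was the only one split by a boundary. It held 10 Lcp and 7 Cpr genes over 31.2 kb (6130386 to 6161589), the adult cuticle gene Acp65Aa and CG13297. Left of the boundary at 6146001, 10 members from Lcp65Ag3 to Lcp65Ac lay in a domain of 20.8 kb, whose only other gene was l(3)mbn. Right of it, Lcp65Ab2, Cpr65Ax1, Lcp65Ab1, Cpr65Ax2, Lcp65Aa, Cpr65Ay and Cpr65Az lay in a domain of 349.2 kb with 40 genes, among them the laminin gene LanA. The outer boundaries were stronger than the inner one (1.28), with 2.09 at 6124801 and 2.40 at 6495601. With boundaries of at least the median strength, all 17 members lay in a single interval of 370.4 kb. Lcp65Ab2, 274 bp from the inner boundary, and Lcp65Ab1, 3148 bp from it, are known as near-identical copies, as are Cpr65Ax1 and Cpr65Ax2. The sources used here do not say how reads from such copies were assigned. Of the other Lcp genes, all on 2R, Lcp1 to Lcp4 lay at least 161.5 kb from a boundary and Lcp9 lay 16.8 kb from one.

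**Figure D5:**
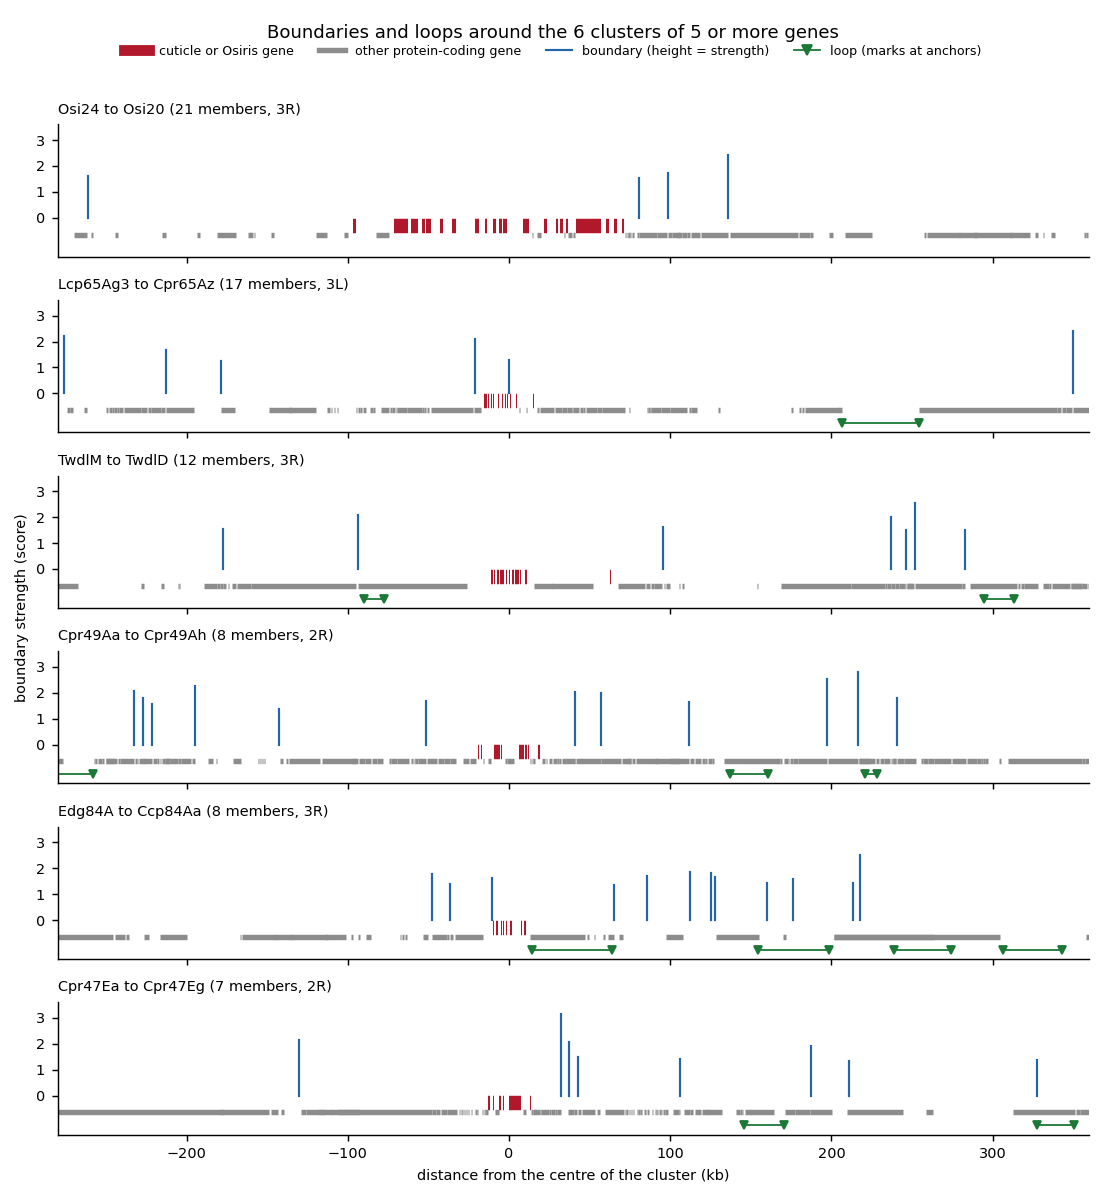
Cuticle and Osiris genes, other protein-coding genes, boundaries (line height is strength, vertical axis) and loops around the 6 clusters of 5 or more members, as distance in kb from the centre of each cluster. A boundary falls inside a cluster only at Lcp65Ag3 to Cpr65Az, and no loop anchor falls inside any of the 6.

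No Tweedle gene lay at a boundary, against 18.2% of all genes and 11.0% of those of up to 2 kb. The median domain of a Tweedle gene was 188.8 kb, against 112.8 kb over all genes. This median is the size of the 1 domain that held 13 of the 25 genes. The 7 domains with a Tweedle gene ran from 39.2 to 325.6 kb. The cluster from TwdlM to TwdlD on 3R (26619118 to 26641054) held 12 genes over 21.9 kb with no gene of another kind between them and gaps of at most 2.47 kb. TwdlD, its last gene, is the one whose mutants gave the family its name. TwdlQ lay 51.5 kb to the right in the same domain of 188.8 kb. So did Tb, the gene of the marker mutation Tubby, to which the gene table gives the synonym TwdlA and which the symbol rule missed. The domain thus held 13 members and 7 other genes, including scrib and the immunoglobulin gene beat-VII. Its boundaries, at 26536001 (strength 2.08) and 26725201 (1.60), were 82.7 and 84.1 kb from the cluster. TwdlC, TwdlT, Cpr97Ea and Cpr97Eb, further along 3R, shared a domain of 325.6 kb with 48 other genes. On X, TwdlX, TwdlY, TwdlZ and Twdlalpha lay in a domain of 96.0 kb between boundaries of 1.82 and 2.14, and the gene goe extends over the whole cluster. TwdlF, TwdlG and TwdlV on 3R lay in a domain of 90.0 kb with weak boundaries of 1.43 on either side.

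Cuticle genes within the Antennapedia complex shared a domain with Hox-complex genes. Edg84A and the 7 Ccp84A genes, from Ccp84Ag to Ccp84Aa, spanned 20.5 kb (6684445 to 6704903 on 3R) with no other gene between them, and lie between lab, 5855 bp to the left, and pb, 2897 bp to the right. The boundary beside Edg84A, of strength 1.62 and so below the median, set the cluster apart from lab. With boundaries of at least the median strength, the cluster lay in an interval of 133.2 kb that also held lab. No boundary lay between Ccp84Aa and pb, and the domain of 75.6 kb went on over pb, zen2, CG34297, zen and bcd to a boundary of strength 1.34. The loop of value 6.95 between pb and bcd had its left anchor at 6708801, 3898 bp from Ccp84Aa and 5924 bp from Ccp84Ab. The cluster lay outside this loop.

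The Cpr clusters on 2R were interrupted by other genes but not by boundaries. Cpr49Aa to Cpr49Ah held 8 members and 7 other genes, among them the odorant receptor gene Or49a, over 38.5 kb. The cluster lay in a domain of 92.0 kb with boundaries of 1.67 and 2.01 at distances of 31.8 and 21.6 kb. Cpr47Ea to Cpr47Eg held 7 members, with CG13223 and TpnC47D, a troponin C gene, between them and Or47a overlapping Cpr47Ea. Its domain measured 162.4 kb, and the boundary on its right, 18.8 kb away, was the strongest at any cluster, at 3.14 and rank 82. The neighbours Cpr50Ca and Cpr50Cb lay 80.3 and 137 kb from the boundaries on either side. On 3L, the third Edg gene, Edg78E, lay among Cpr78Ca, Cpr78Cb and Cpr78Cc in a domain of 48.4 kb that also held the Polycomb gene Pc. Further clusters of 3L, Cpr62Ba to Cpr62Bc, Cpr64Aa to Cpr64Ad, Cpr65Ea to Cpr65Ec and Cpr76Ba to Cpr76Bd, lay in domains of 70.0, 72.0, 129.6 and 81.6 kb.

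Loop anchors were rare near the members. Within 5 kb of an anchor lay 2 of the 145 genes (1.38%), against 5.39% of all protein-coding genes and 3.53% of those of up to 2 kb. They were Cpr60D on 2R, 3482 bp from the anchor at 24658401 of a loop of value 4.50 and rank 292 of 313, and Ccp84Aa, beside the pb to bcd loop of rank 176. Ccp84Ab followed at 5924 bp, just outside the limit, and it was the only further member within 10 kb. Within 10 kb of an anchor thus lay 3 members (2.07%), against 8.32% of all genes. No member lay within 1 kb of an anchor, against 3.06% of all genes. The median distance to the nearest anchor was 153 kb for the members and 130 kb for all genes. No anchor lay in 34 of the 47 domains, which held 97 of the 145 genes. A whole loop lay in 12 of the 47 domains. No like share over all domains is given for these counts, so they do not show whether anchors or loops were rare there. Of the domains of at least 100 kb, 10 of 27 with a member (37.0%) and 109 of 413 without one (26.4%) held a whole loop.

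Loops passed over 6 members, or 4.14%, against 3.48% of all protein-coding genes. Lcp1, Lcp2, Lcp3 and Lcp4, larval cuticle genes within 8.38 kb on 2R, lay inside 2 nested loops in a domain of 348 kb. The outer loop ran 150.4 kb from 8407201, inside CG2121, to 8557601 and had a value of 15.3. The inner loop ran 103.2 kb from 8413601 to 8516801, inside mtt, a gene of the metabotropic glutamate receptor family, and had a value of 10.7. The nearer anchor lay 15.7 kb from Lcp1. Cpr23B on 2L lay inside a loop of 41.6 kb and value 4.37 that started at daw, an activin-like ligand gene. Osi22 lay inside a loop of 36.8 kb and value 7.43. The loops of the Cpr60D and Edg84A domains passed over no member, but each had the anchor within 5 kb of a member given above. Other loops in domains of members included one of value 84.4 beside salr, a spalt-family gene, in the domain of Osi21, 72.7 kb from Osi21. They also included one of 36.8 in the domain of Lcp65Ab2, 191 kb from Cpr65Az. The nearest of these other loops to a member had a value of 26.8 and lay 12.3 kb from Cpr5C.

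Other genes of cuticle formation were counted in the same way. In a list of 33 genes outside the symbol rule, covering other cuticle proteins, chitin synthesis and turnover, and tanning, 4 (12.1%) lay at a boundary, against 18.2% of all genes, and none lay within 5 kb of an anchor, against 5.39% of all genes. A list of this size is too short to read a difference from these counts. At boundaries were rtv, a gene of chitin fibre organisation (411 bp, strength 2.53), the chitinase gene Cht7 (end inside the bin, 2.00), resilin, which encodes an elastic cuticle protein (430 bp, 1.52), and the chitin synthase gene kkv (735 bp, 1.35). The nearest of the list to an anchor was verm, a chitin deacetylase gene, at 7233 bp. Domains had a median of 118.8 kb over this list. Some of the 33 shared a domain with a member, namely Gasp with the Osiris cluster, Acp65Aa with Lcp65Ab2 to Cpr65Az, and the chitin-binding gene obst-B with Cpr31A. Families used in chemosensation, many of which are also tandem, had the following values. A boundary lay within 1 kb of 3 of 59 Or genes (5.08%), 2 of 60 Gr genes (3.33%), 5 of 60 Ir genes (8.33%) and 5 of 51 Obp genes (9.80%). An anchor lay within 5 kb of 1 of 59 Or genes (1.69%) and 1 of 60 Gr genes (1.67%). The same held for 1 of 60 Ir genes (1.67%) and 3 of 51 Obp genes (5.88%), against 1.38% of the cuticle and Osiris genes. Their median distances to a boundary were 45.3, 44.1, 17.4 and 31.9 kb, against 29.5 kb for the cuticle and Osiris genes. Their median domains measured 181.6, 192.8, 132.0 and 156.8 kb. No difference between these families and the cuticle and Osiris genes was tested.

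The members were spread unevenly over the arms. The 2 arms of chromosome 3 carried most of them, 57 on 3R (39.3%, against 24.4% of all protein-coding genes) and 46 on 3L (31.7% against 19.7%). Arm 2R carried 27, X 8 and 2L 7, and chromosome 4 none. The median domain of a member was 300 kb on 3R, 162.4 kb on 2R, 119 kb on X, 115.6 kb on 2L and 72.0 kb on 3L. On 3R, 35 of the 57 members lay in the Osiris domain and the large Tweedle domain.

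Of the single genes, 2 (6.06%), Cpr31A and Cpr56F, lay at a boundary, as did 4 of 112 clustered genes (3.57%). The shares were 18.2% over all genes and 11.0% over those of up to 2 kb. Counts of 2 and 4 are too small to read a difference between single and clustered genes. The median distance to a boundary was 30.0 kb for single genes and 29.2 kb for clustered ones, and the median domains were 146.4 and 162.4 kb. Domains of 100 kb or more held 23 of the 33 single genes (69.7%) and 61 of the 112 clustered ones (54.5%). They held 54.3% of all protein-coding genes and 59.4% of those of up to 2 kb.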

How the data were processed

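The submitters' processing notes name the aligner BWA (version 0.7.17) and the build dm6. Other steps, such as pooling of the 2 yw samples, are not stated there. Boundary strength and loop value are scores deposited by the authors without a scale. Of 2034 boundary entries, 14 exact repeats and 90 on Y were left out. The 614 different anchors of the anchor list were those of the loop table.

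Genes came from the RefSeq table (Release 6), which has no strand, so gene ends and not starts were used. A gene belonged to the domain of its midpoint. Domains at the ends of arms have no size. A gene was inside a loop when it lay between the outer anchor edges. No sequence was used here.

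The members, lists and distances were chosen with earlier results of these data known. Named are members at boundaries or anchors, ends of clusters of 5 or more and their neighbours, Edg and Lcp genes, and members of the 3 largest and 3 smallest domains. Other genes, given to place a feature or describe a domain or cluster, were chosen after their values were seen. The comparisons with genes of up to 2 kb, pairs up to 5 kb apart and domains of 100 kb or more were also chosen after values were seen. Alternatives varied distances, the minimum score, the cluster gap and the sequence included. Counting was tested on simulated data. Python 3.11.15 and pandas 2.3.3 were used.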

Additional observations from a re-analysis of the deposited data

How the results depend on the processing

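Of 21 alternatives, 11 left the value near that given above, and 10 did not. Near means within 1.5 times of a count or within the 95% binomial interval of the median (96.0 to 188.8 kb). That interval treats genes of the same domain as independent, so this sorting is only a description. With boundaries of at least the median strength, 0 members lay at a boundary against 8.16% of all genes, 0 clusters held a boundary, 0 cluster edges had one, and the median domain of a member was 330.4 kb against 252.4 kb for all genes. With the gene end inside the boundary bin, 0 members were counted against 7.14% of all genes, and within 5 kb 20 members (13.8%) against 31.1%. Within 1 kb of an anchor lay 0 members against 3.06% of all genes, and within 5 kb of anchors of loops of at least the median value 0 against 2.36%. Within 2 kb and 10 kb of an edge, 2 and 8 cluster edges had a boundary. The share of all gene ends is given only for 5 kb and every listed boundary. The other counts of cluster edges therefore have no background beside them. No paired analysis was possible because the lists hold 1 value per feature for the line and none per sample, and for the same reason no sample could be left out. Boundaries weaker than the list's minimum and loops not called at this depth are unseen, so an absence here is an absence from the lists.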
